A study of Mus musculus with 13 samples.

Results

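The collagen alpha chain genes of the mouse were followed in mammary tumors and in normal mammary glands. Members were all genes of the deposited table whose symbol is Col, a number, the letter a and a number, and 37 of the 15213 listed genes met this rule. RNA sequencing (RNA-seq) covered 10 mammary tumors of females with the genotype MMTV-tTA TetO-Tsg101 and, as controls, 1 mammary gland each of 3 wild-type FVB females. In the tumor-bearing females, the MMTV promoter directs tTA, a tetracycline-controlled transactivator, to the mammary epithelium, where it switches on a TetO transgene encoding TSG101, a component of the ESCRT machinery that sorts membrane proteins. The transgene carries an HA tag and a luciferase reporter and was expressed from 1 founder line on the FVB/N background. The 10 tumors came from 6 females, of which 3 gave 1 tumor, 2 gave 2 tumors and 1 gave 3 tumors, whereas each gland came from a different female. The ages of the females that gave RNA and the reproductive stage of the gland donors were not given in the sources used here, and transgenic glands without a tumor were not analysed here.

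Collagens are built from 3 alpha chains that wind around each other, which requires a glycine in each Gly-X-Y triplet of the helical part. Fibrillar collagens (types I, II, III, V, XI and XXVII) assemble into the fibers of connective tissue, and types I and III are made mainly by fibroblasts. Type IV collagen forms the network of basement membranes, which in the mammary gland separates the epithelium from the stroma and surrounds vessels and adipocytes. Fibril-associated collagens decorate fibrils, transmembrane collagens span the cell membrane, and type VI forms beaded filaments. In squamous and basal epithelium, type XVII collagen is a part of the hemidesmosome, the junction that holds a basal cell on its basement membrane, and type VII forms the anchoring fibrils beneath it.

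All members share the glycine repeat, and in the fibrillar members it runs longest without a break. To show the repeat itself, the first 15 codons of its longest run in 3 members on which the results turn are given from the GENCODE coding sequences (build GRCm38), each with the first bases GG of its glycine codons in capitals. The stretches are codons 168 to 182 of Col1a1, codons 1249 to 1263 of Col4a5 and codons 648 to 662 of Col17a1.
Col1a1: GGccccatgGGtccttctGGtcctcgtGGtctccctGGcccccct
Col4a5: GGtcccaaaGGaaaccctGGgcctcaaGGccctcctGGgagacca
Col17a1: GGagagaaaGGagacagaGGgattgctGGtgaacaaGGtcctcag
The stretches look alike, and the members differ in the length of the whole run. In the 10 fibrillar members, the longest unbroken run of such triplets was 217 to 344 triplets long. In the 4 type IV members, the repeat was broken into 22 to 25 runs of at least 5 triplets, and the longest run had 40 to 66 triplets. The longest run spanned 32 to 113 triplets in the 7 fibril-associated members and 40 to 56 triplets in the 4 transmembrane members. It was 37 to 87 triplets long in the 5 beaded filament members and 23 to 75 in the 7 others, so that all groups but the fibrillar one overlapped.

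The values are reads divided by an effective library size and are called normalized cpm. Genes were compared with limma on log2(normalized cpm + 1), and a log2 fold change is always the tumor minus the gland value on this scale, with its standard error (SE). Genes past a false discovery rate (FDR) of 0.05 with a change of more than 2-fold were counted as significantly higher or lower. Of the 37 collagens, 29 passed the filter on low values. Among these, 10 were significantly higher in tumors, 10 were significantly lower and 9 passed neither. This is 34.5% in each direction, beside 10.2% higher and 6.99% lower (17.2% in all) among the 11795 genes tested. The median log2 fold change of the collagens tested was 0.44, beside 0.01 over all genes tested. The 8 members that the filter left out were taken from the same fit without it, in which 20.6% of the 15213 genes were called (10.5% higher, 10.1% lower). There, 11 of the 37 collagens were higher and 12 lower, and their median was -0.19, of the opposite sign to that of the 29 tested. A gene that is high only in the 3 glands cannot pass the filter. Conversely, a gene at 5 normalized cpm or less in every gland passes only where at least 7 tumors exceed 5. Among the 10 higher collagens this was so for Col2a1, Col8a1 and Col8a2, whose entry into the test is thus tied to their rise. The fit without the filter called them higher as well. The groups did not move alike: 5 of 9 fibrillar members tested were lower and 1 higher, the 4 type IV members split into 2 and 2, and 3 of 7 fibril-associated members were higher with none lower.

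**Figure D1:**
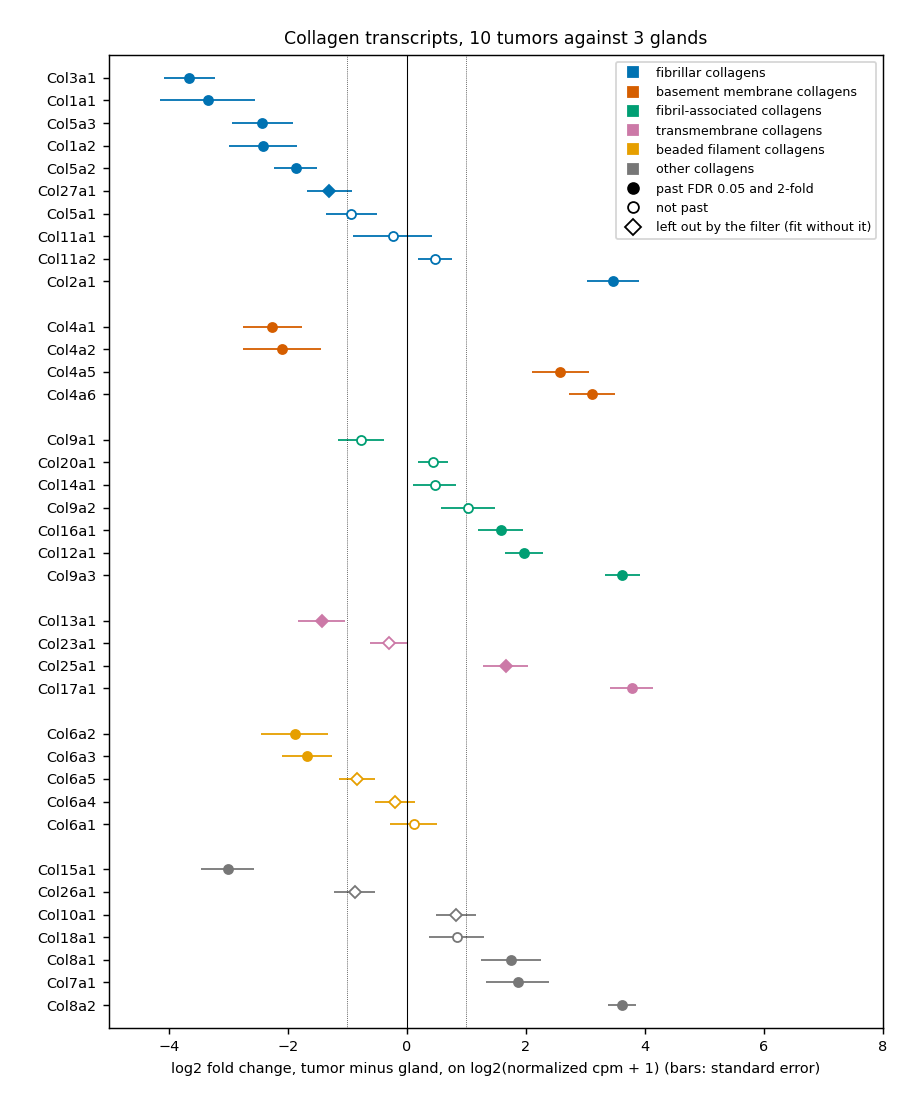
Log2 fold change of each collagen (horizontal axis, tumor minus gland on log2(normalized cpm + 1), limma estimate with its SE as a bar) by structural group. Filled symbols passed an FDR of 0.05 and a 2-fold change, and diamonds are members that the filter left out. Col3a1 lies lowest at -3.65 and Col17a1 highest at 3.78, and the type IV chains lie on both sides of 0.

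The libraries held 6176269 to 16835397 reads in the tumors and 11672487 to 23889042 in the glands, so that 3 reads, the limit a count of 0 allows, corresponded to 0.128 to 0.683 normalized cpm (counting error only). Rn45s, the ribosomal RNA precursor, took 27.4% of the reads in tumor 9 and at most 9.32% in the others. Gland 3 stood apart from the other glands. Its adipocyte markers summed to 11237 normalized cpm against 3714 and 4131 in glands 1 and 2, its epithelial markers to 1675 against 2496 and 3556, and its Rn45s share was 4.35% against 0.324% and 0.296%. Its collagens also differed by base composition: the log2 level in gland 3 minus the mean of glands 1 and 2 had a median of -0.53 over the 14 tested collagens with the lower transcript GC content (46.8% to 56.7%) and of -1.59 over the 15 with the higher one (57.0% to 64.1%). With log2 values centred by transcript GC content in each library, 11 collagens were higher and 10 lower, beside 10.4% and 7.04% of all genes. Without gland 3, 8 collagens were higher and 11 lower, beside 12.8% and 9.50% of all genes, so that fewer collagens but more genes in all were higher. Skeletal muscle markers summed to 2105 normalized cpm in tumor 4 and to 376 in the next highest tumor, against a median of 3.77 over the tumors. Without tumor 4, 10 collagens were higher and 11 lower, and without tumor 9 the counts were 10 and 10. Leaving out 1 tumor gave 9.82% to 10.4% higher and 6.73% to 7.53% lower among all genes.

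Transcripts of the main fibrillar collagens were lower in the tumors. Col3a1, which encodes the single chain of type III collagen and was the most abundant collagen of the glands, ranged from 75.2 in tumor 6 over a median of 205 to 336 normalized cpm in tumor 4, beside 1990.3, 2242 and 2533 in the 3 glands. All tumors lay far below all glands, including gland 3, which was the highest. The log2 fold change was -3.65 ± 0.43 (SE), with an adjusted p of 2.19e-05 in limma. Every tumor lay below every gland in 5 of the 29 collagens tested and above in 9, which was the case for 8.53% and 10.7% of all genes tested. Among all 37 listed collagens these were 5 and 10, beside 10.3% and 11.4% of all listed genes.

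Col1a1, which supplies 2 of the 3 chains of type I collagen, had 13.5, 66.4 and 222 normalized cpm as the lowest, median and highest tumor, and 923, 1099.8 and 221 in glands 1 to 3. Tumor 4, the highest, just overlapped gland 3, and the other 9 tumors lay below all glands (log2 fold change -3.34 ± 0.79, adjusted p = 0.00561, limma). Without gland 3 the log2 fold change was -4.07 (adjusted p = 0.00334). Col1a2, the remaining type I chain, ranged from 34.0 over 80.1 to 218 in the tumors and was at 618, 660.4 and 190.1 in the glands. It had the same overlap of tumor 4 with gland 3, and limma gave -2.41 ± 0.57 in log2 (adjusted p = 0.00526).

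The minor fibrillar type V, which is incorporated into type I fibrils, was measured by its 3 chains. Col5a2 had 19.0, 39.0 and 79.6 normalized cpm as the lowest, median and highest tumor, and 121, 152 and 135 in the glands, without overlap (log2 fold change -1.87 ± 0.36, adjusted p = 0.00115, limma). Col5a3 was also lower (-2.43 ± 0.51, adjusted p = 0.00245). Col5a1 ranged from 27.3 over 45.7 to 128 in the tumors and was at 119, 137 and 53.6 in the glands. These ranges overlapped, and its log2 fold change of -0.93 ± 0.42 did not pass (adjusted p = 0.121, limma). It did pass without gland 3 (-1.34, adjusted p = 0.0392) or tumor 4 (-1.08, adjusted p = 0.0415).

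Col2a1, the chain of cartilage type II collagen, went the other way at a low level. It ranged from 4.81 in tumor 6 over 9.64 to 30.9 normalized cpm in tumor 4, which were 49 to 659 reads, whereas the glands held 0, 3 and 1 reads. All 10 tumors thus lay above the glands, and with 3 reads in each gland as the floor the tumor mean was at least 60.2-fold higher (adjusted p = 3.66e-05, limma). Of 8 cartilage markers, 3 were listed and 2 tested. Of these, Chad, a leucine-rich protein of cartilage matrix, was higher (log2 fold change 2.83 ± 0.36, adjusted p = 4.33e-05, limma) and Sox9 did not pass (-0.63), and the sum of the 3 overlapped between the groups (73.7 to 150.1 in tumors, 80.9 to 192 in glands). The other type XI and XXVII chains were at low levels. Col11a1 and Col11a2 did not pass (log2 fold changes of -0.23 and 0.47), and Col27a1 was lower in the fit without the filter (-1.30 ± 0.37, adjusted p = 0.0154, limma).

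**Figure D2:**
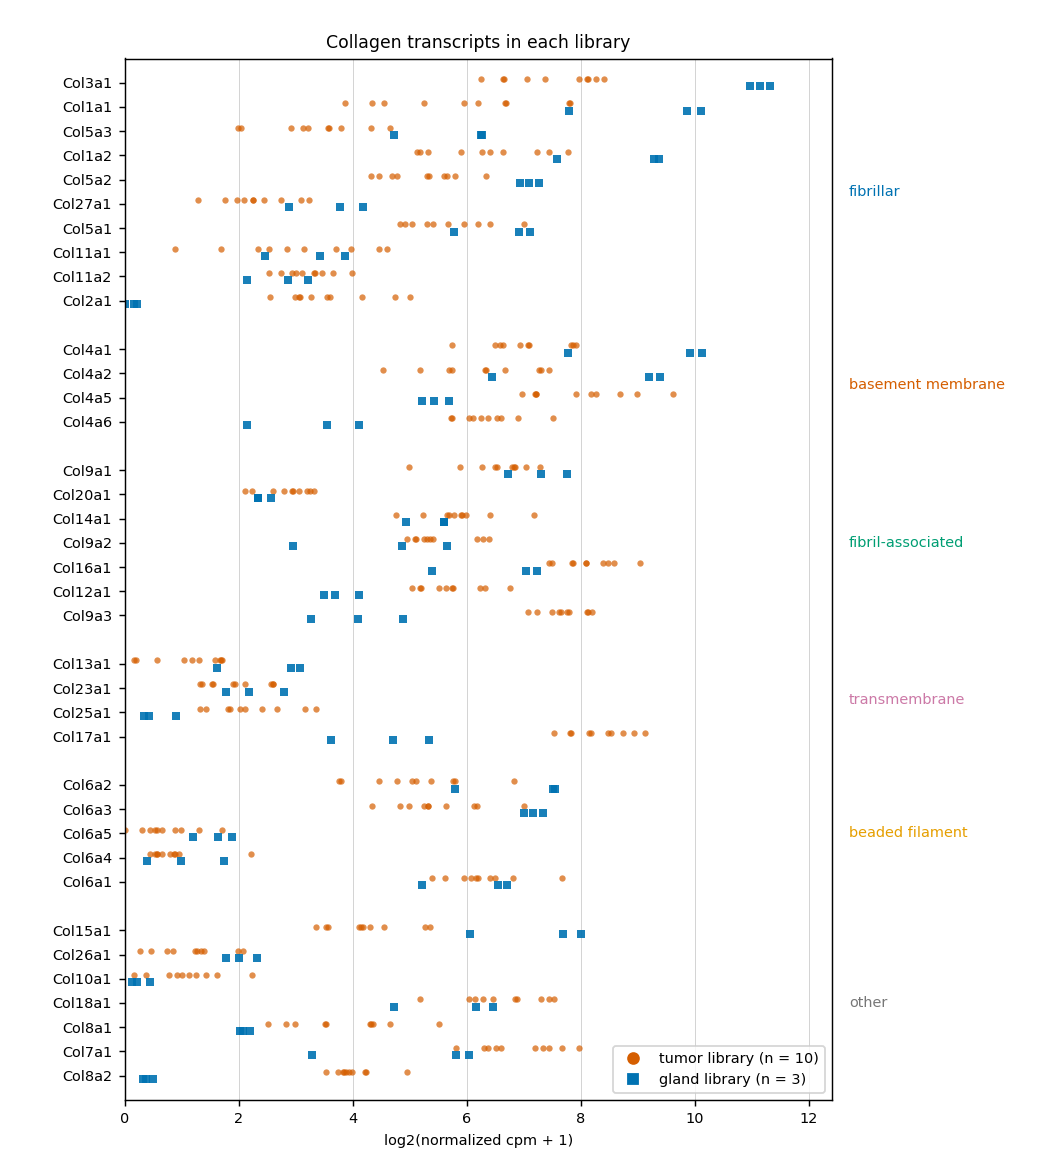
Level of each of the 37 collagens in each library (horizontal axis, log2 of normalized cpm + 1), with tumors as circles and glands as squares, by structural group. In Col3a1 all tumor points lie left of all gland points, in Col17a1 and Col9a3 all lie right of them, and gland 3 is the square nearest to the tumors in Col1a1 and Col4a1.

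The type IV chains divided by gene pair. Type IV collagen is assembled from 3 kinds of trimers, the ubiquitous one from the chains of Col4a1 and Col4a2, and another, known from the basement membranes of skin and smooth muscle, from those of Col4a5 and Col4a6. The Col4a1 and Col4a2 transcripts were lower in the tumors and the Col4a5 and Col4a6 transcripts higher. Col4a3 and Col4a4 were not analysed here.

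Col4a1 had 52.4, 127 and 239 normalized cpm as the lowest, median and highest tumor, and 959, 1116 and 217 in glands 1 to 3. The tumors lay far below glands 1 and 2, and 3 of them lay above gland 3 (log2 fold change -2.26 ± 0.50, adjusted p = 0.00333, limma). Without gland 3 it was -3.01 (adjusted p = 2.86e-04). Col4a2 ranged from 22.0 over 79.1 to 172 in the tumors and was at 581, 667 and 85.5 in the glands, with 4 tumors above gland 3. Its log2 fold change was -2.09 ± 0.65 (adjusted p = 0.0272, limma), and it was -3.04 without gland 3 (adjusted p = 0.00227). The call was lost without gland 1 (-1.67, adjusted p = 0.167) or gland 2 (-1.57, adjusted p = 0.175), without the mouse of tumors 8 to 10 (-1.88, adjusted p = 0.0897) and with tumors of the same mouse averaged (-1.96, adjusted p = 0.0849).

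Col4a6 had 51.4, 78.2 and 181 normalized cpm as the lowest, median and highest tumor, and 10.7, 16.2 and 3.41 in the glands. Every tumor was above every gland, and limma gave 3.11 ± 0.39 in log2 (adjusted p = 3.60e-05). Col4a5 ranged from 124 in tumor 6 over 264 to 786 normalized cpm in tumor 9, and was at 36.0, 50.5 and 42.1 in the glands. Here the 3 glands were close to each other, and the tumors, all higher, differed among themselves by up to 6.35 times (log2 difference 2.58 ± 0.48, adjusted p = 9.76e-04, limma). On the scale of normalized cpm per kb of exon, the Col4a5 and Col4a6 chains made up 32.9% to 87.2% of the type IV level in the tumors, with a median of 61.4%, but 3.00%, 3.67% and 13.7% in glands 1 to 3.

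**Figure D3:**
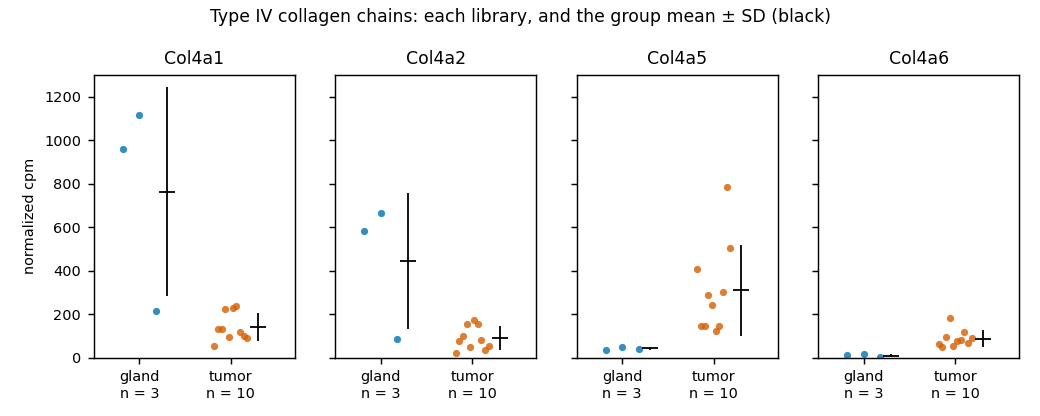
Normalized cpm (vertical axis) of the 4 type IV chains in each library, with the group mean ± SD in black. For Col4a1 and Col4a2, glands 1 and 2 lie high and gland 3 among the tumors, and for Col4a5 and Col4a6 all tumors lie above all glands.

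Both type IV pairs lie head to head in the genome. Per the RefSeq annotation of GRCm38.p6, the bounds of Col4a1 and Col4a2 on chromosome 8 overlap by 85 bases, and 1274 bases separate Col4a5 and Col4a6 on the X chromosome. Because members of a pair moved together, the RefSeq promoter windows of the Col4a5 and Col4a6 pair are shown, as far as they lie outside the gene bounds, beside those of Col17a1 and Col3a1, the members with the largest rise and fall on the log2(normalized cpm + 1) scale. Sequences run 5′ to 3′ on the gene's strand up to the base before the gene, and capitals mark CCAAT or its reverse complement ATTGG, and TATAAA.
Col4a5, chrX:141475169-141475369, plus strand: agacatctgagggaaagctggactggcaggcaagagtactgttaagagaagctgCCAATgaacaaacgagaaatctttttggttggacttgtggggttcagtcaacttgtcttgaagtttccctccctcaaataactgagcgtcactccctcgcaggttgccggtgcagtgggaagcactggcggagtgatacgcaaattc
Col4a6, chrX:141474096-141474326, minus strand: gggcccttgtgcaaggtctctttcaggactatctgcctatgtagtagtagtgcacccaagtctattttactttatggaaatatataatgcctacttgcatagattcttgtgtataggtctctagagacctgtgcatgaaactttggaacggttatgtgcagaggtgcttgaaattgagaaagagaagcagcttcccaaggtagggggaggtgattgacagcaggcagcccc
Col17a1, chr19:47692043-47692292, minus strand: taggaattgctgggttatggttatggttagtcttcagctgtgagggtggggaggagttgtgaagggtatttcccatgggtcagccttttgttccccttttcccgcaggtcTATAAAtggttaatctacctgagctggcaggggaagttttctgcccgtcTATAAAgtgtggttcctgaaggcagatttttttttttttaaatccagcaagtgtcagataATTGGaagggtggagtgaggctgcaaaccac
Col3a1, chr1:45311288-45311537, plus strand: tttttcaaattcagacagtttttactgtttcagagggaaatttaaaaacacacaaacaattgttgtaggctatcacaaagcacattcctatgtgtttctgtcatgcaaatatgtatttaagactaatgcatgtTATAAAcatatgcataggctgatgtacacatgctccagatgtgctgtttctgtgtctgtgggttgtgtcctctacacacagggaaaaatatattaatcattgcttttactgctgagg
The 3 members with a match differed in it: Col17a1 had TATAAA in 2 places, Col3a1 in 1 and Col4a5 in none. These and other motifs were searched on both strands in windows of 250 bases before to 50 bases after each start, which 30 of the 37 members had. The GC box GGGCGG was in 66.7% of the 33 collagen windows and in 35.7% of all 32851 windows. The CCAAT box was in 39.4% of the collagen and 37.4% of all windows. The TATA box TATAAA was found in 15.2% and 13.6% of them, and the AP-1 motif TGANTCA in 3.03% and 7.81%. None of these motifs contains another, and the matches describe letters, not bound factors.

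Of the 7 fibril-associated members, 3 were significantly higher, none was lower and 4 did not pass. Col9a3, a chain of type IX collagen, had 134, 208 and 292 normalized cpm as the lowest, median and highest tumor, and 16.1, 28.2 and 8.66 in the glands. The groups were far apart, and the log2 fold change was 3.63 ± 0.30 (adjusted p = 7.30e-07, limma). The opposite strand of Col9a3 holds Tcfl5, which shares 234 bases (6.07%) of its exons, and whether reads were counted by strand was not given in the sources used here. The other type IX chains were not called. Col9a1 averaged 96.4 ± 35.9 in the 10 tumors and 159 ± 55.1 in the 3 glands (mean ± SD), and its log2 fold change of -0.77 ± 0.38 did not pass (adjusted p = 0.156, limma). For Col9a2 the log2 fold change was 1.04 ± 0.45 (adjusted p = 0.107, limma), and leaving out a gland moved it between 0.27 (without gland 3) and 1.62 (without gland 2, adjusted p = 0.0231).

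Col16a1, which is found near fibrils and at the epithelial basement membrane, had the highest mean normalized cpm of the group over the 13 libraries, although Col9a1 was higher in each gland and Col9a3 in tumors 9 and 10. It ranged from 173 over 270.4 to 524 normalized cpm in the tumors and was at 130.1, 149 and 40.6 in the glands. No tumor overlapped a gland (log2 fold change 1.58 ± 0.38, adjusted p = 0.00612, limma), but without gland 3 the log2 fold change was 0.99 (adjusted p = 0.0395), under the 2-fold limit. Col12a1, a large fibril-associated chain of dense connective tissue, was higher as well (1.97 ± 0.32, adjusted p = 2.89e-04, limma). Col14a1 and Col20a1 did not pass (log2 fold changes of 0.47 and 0.44).

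Among the transmembrane collagens, Col17a1, the hemidesmosomal one, showed the largest rise of all members on the log2(normalized cpm + 1) scale, which understates the rise of low genes such as Col2a1 and Col8a2. It had 184, 322 and 558 normalized cpm as the lowest, median and highest tumor, the lowest in tumor 2 and the highest in tumor 4, and 25.0, 39.3 and 11.2 in glands 1 to 3. Every tumor was above every gland by a wide margin (log2 fold change 3.78 ± 0.36, adjusted p = 3.26e-06, limma). Per kb of exon, it was the highest collagen in 5 of the 10 tumors, and Col4a5 was the highest in 3. In all 3 glands, Col3a1 was the highest per kb, followed by Col1a1 and Col4a1. The other transmembrane members had few reads and did not pass the filter. Without it, Col25a1 was higher (log2 fold change 1.66 ± 0.39, adjusted p = 0.00424) and Col13a1 lower (-1.43 ± 0.39, adjusted p = 0.0121) in limma, whereas Col23a1 did not pass. Col13a1 ranged from 0.120 over 1.36 to 2.28 normalized cpm in the tumors and was at 6.55, 7.43 and 2.07 in the glands, so that 3 tumors reached the level of gland 3.

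Type VI collagen is classically a trimer of the Col6a1, Col6a2 and Col6a3 chains, but their transcripts differed. Col6a2 had 12.52, 32.5 and 112 normalized cpm as the lowest, median and highest tumor, and 181, 186 and 54.5 in the glands. All tumors but tumor 4 lay below gland 3 (log2 fold change -1.88 ± 0.56, adjusted p = 0.0205, limma), and the call was lost at similar values without gland 1 (-1.60, adjusted p = 0.121) or gland 2 (-1.59, adjusted p = 0.115) and with tumors of a mouse averaged (-1.72, adjusted p = 0.0636). Col6a3 ranged from 19.1 over 38.8 to 127 in the tumors and was at 161, 127 and 143 in the glands. Tumor 8, the highest, was just below gland 2, and the log2 fold change was -1.67 ± 0.42 (adjusted p = 0.00758, limma). Col6a1 was at 40.6, 71.3 and 201 in the lowest, median and highest tumor and at 104, 92.5 and 36.1 in the glands. Its ranges overlapped widely, and the log2 fold change of 0.12 ± 0.40 (adjusted p = 0.862, limma) changed sign without tumor 4 (-0.04) or gland 3 (-0.36). Col6a4 and Col6a5 had few reads, with 3 to 20 and 0 to 21 in the tumors and 6 to 55 and 22 to 49 in the glands. Neither was called in the fit without the filter (log2 fold changes of -0.19 and -0.83).

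Among the 7 further members, Col8a2, a short-chain collagen of Descemet's membrane, had 10.6, 13.97 and 29.8 normalized cpm as the lowest, median and highest tumor, and 0.300, 0.413 and 0.244 in the glands. It was nearly absent from the glands and present in every tumor (log2 fold change 3.61 ± 0.24, adjusted p = 1.01e-07, limma). Its partner Col8a1 was higher too (1.75 ± 0.50, adjusted p = 0.0171, limma), a call that was lost without gland 1 (1.81, adjusted p = 0.0571) or gland 2 (1.74, adjusted p = 0.0594), although the value hardly moved. Col7a1, the chain of anchoring fibrils, ranged from 54.9 over 120.5 to 248 normalized cpm in the tumors and was at 55.3, 64.7 and 8.78 in the glands. In 9 of 10 tumors it was above all glands (log2 fold change 1.87 ± 0.53, adjusted p = 0.0163, limma), but without gland 3 the log2 fold change was 0.99 (adjusted p = 0.105).

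Col15a1, a basement membrane zone collagen of vessels and adipose tissue, showed the opposite pattern. It had 9.19, 16.9 and 39.8 normalized cpm as the lowest, median and highest tumor, and 203, 256 and 65.3 in the glands. All tumors were below all glands (log2 fold change -3.01 ± 0.45, adjusted p = 1.62e-04, limma). Without gland 3 it was -3.61. Its relative Col18a1, the source of endostatin, did not pass (0.84 ± 0.46, adjusted p = 0.197, limma). Col10a1, the collagen of hypertrophic cartilage, was at or under 3 reads in every gland and did not pass in the fit without the filter (adjusted p = 0.0778), and Col26a1 did not pass either (adjusted p = 0.0656).

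The make-up of the collagen transcripts differed between the groups, whereas their amount, which was not tested, overlapped. The collagens summed to 1965 to 4574 normalized cpm in the tumors (median 2521) and to 6687, 7629 and 4084 in glands 1 to 3, so that tumor 4, the highest, lay above gland 3. Collagen reads were 0.183% to 0.579% of the reads in the tumors (median 0.263%) and 0.287% to 0.690% in the glands. By this share, tumors 3, 4, 7 and 8 lay above gland 3, and all tumors lay below glands 1 and 2. Fibrillar members made up 10.7% to 27.8% of the summed collagen normalized cpm in the tumors and 57.7% to 77.7% in the glands. Fibril-associated members took 20.1% to 33.7% in the tumors and 5.01% to 6.68% in the glands, and transmembrane members 8.87% to 16.0% and 0.406% to 0.663%. The members outside the named structural groups took 6.18% to 13.3% and 2.58% to 5.44%. In each of these 4 groups the ranges of tumors and glands were separate. The shares of type IV members (18.5% to 38.4% and 8.52% to 24.2%) and of beaded filament members (3.64% to 8.70% and 5.33% to 6.74%) overlapped. These sums weight long transcripts more than short ones.

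**Figure D4:**
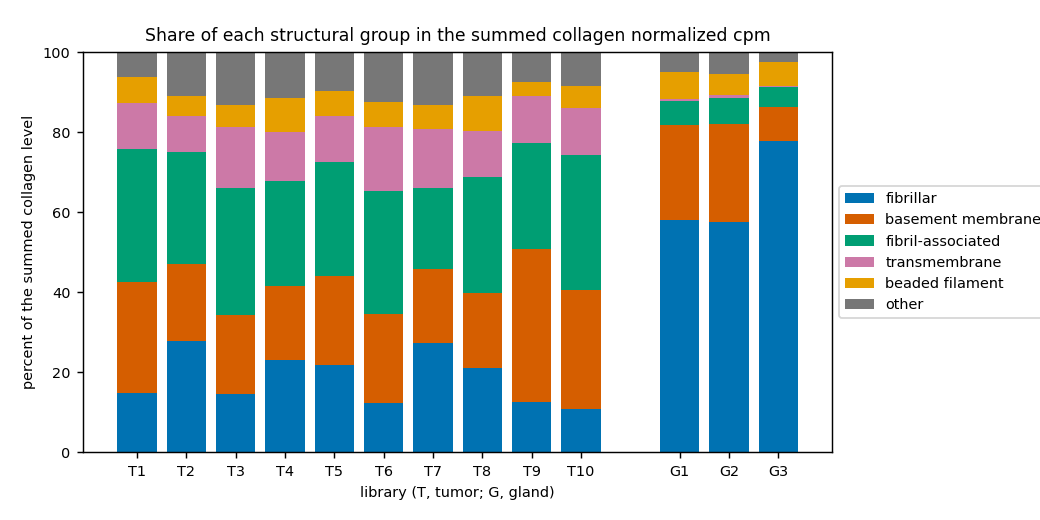
Share of each structural group in the summed collagen normalized cpm (vertical axis, percent) in tumors T1 to T10 and glands G1 to G3. The fibrillar share lies between 57.7% and 77.7% in the glands and at 27.8% or less in the tumors.

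Ratios of chains within a library do not depend on how libraries are scaled. For 6 pairs, the log2 ratio was compared by exact permutation of the libraries (two-sided), which can give no p under 0.0035, and p-values were adjusted over the 6 pairs. The Col6a1:Col6a2 ratio averaged 1.24 ± 0.59 over the 10 tumors and -0.80 ± 0.21 over the 3 glands on the log2 scale (mean ± SD). All 10 tumors lay above all glands (exact permutation p = 0.0035, adjusted p = 0.0105). The Col6a1:Col6a3 ratio did likewise, with a difference of 1.82 in log2 and the same exact permutation p. These p-values take tumors of the same mouse as separate samples. With tumors of a mouse averaged, the differences were 1.99 and 1.71 (adjusted exact permutation p = 0.0357 for both). Without gland 1 or gland 2, both ratios had an adjusted exact permutation p of 0.0455. Without gland 3, the differences were 2.15 and 1.34, with adjusted exact permutation p of 0.0909 and 0.136. With 2 glands this p cannot be under 0.0152, or 0.0909 after adjustment for a pair that alone reaches it. Col6a1:Col6a2 was at this limit without gland 3, so that its adjusted p there cannot decide whether the difference holds. Col6a1:Col6a3 was above the limit. Per kb of exon, Col6a1 was 2.53 to 9.82 times Col6a2 in the tumors and 1.09, 0.946 and 1.26 times in the glands. These lengths join all annotated exons of a gene. They were 4380 bases for Col6a1 and 8326 for Col6a2, which have 1025 and 1034 codons. For Col1a1 and Col1a2 they were 6563 and 12426 bases, with 1453 and 1372 codons. Ratios per kb thus depend on the annotation and do not give the proportions of the chains.

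For type I collagen, the Col1a1:Col1a2 ratio per kb ranged from 0.434 over 1.58 to 2.41 in the tumors and was 2.83, 3.15 and 2.20 in glands 1 to 3. It was below all glands in 9 of 10 tumors, with a log2 difference of -0.95 (exact permutation p = 0.0420), and did not pass after adjustment (adjusted exact permutation p = 0.0839). The Col5a1:Col5a2 ratio differed by 0.95 in log2 (exact permutation p = 0.0944, adjusted p = 0.142). For Col4a1:Col4a2 and Col3a1:Col1a1 the differences of -0.16 and -0.28 in log2 were within the spread of the libraries (exact permutation p = 0.517 and 0.682).

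**Figure D5:**
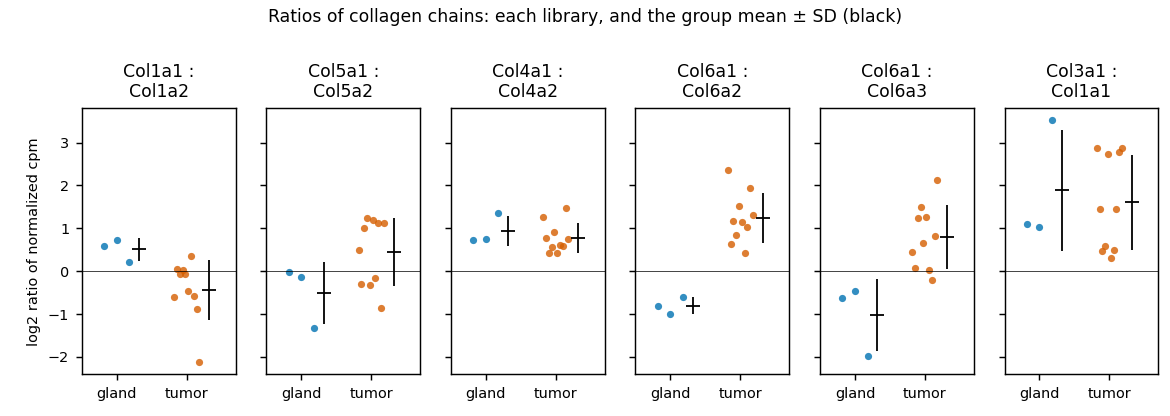
Log2 ratio of the normalized cpm of 2 chains (vertical axis) in each library for the 6 pairs, with the group mean ± SD in black. Both type VI ratios have all 10 tumors above all 3 glands, and in Col1a1:Col1a2 tumor 10 lies lowest at -2.13.

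The tumors varied among themselves. Of the 10 collagens that were higher, 6 had their highest value in tumor 4, and of the 10 that were lower, 5 did. Tumors 1 and 10 were each the lowest of the 10 tumors in 4 of the lower collagens. The widest range among the 20 tested members that were called was that of Col1a1, whose highest tumor was 16.5 times the lowest, and the narrowest that of Col9a3 with 2.19 times. Tumor 9, the library with the largest Rn45s share, had the highest Col4a5 level.

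Markers of other cell types moved with the groups. Their part in the collagen results was not tested, and in these bulk samples fewer cells of a type and less RNA per cell cannot be told apart. The counts of markers stand beside 10.2% higher and 6.99% lower among all genes tested, and 10.5% and 10.1% without the filter. Sums here and below are over all listed markers of a cell type, whether or not they were tested. Of 11 fibroblast markers tested, 4 were lower and 1 higher, and the sum of the 12 listed was 229 to 822 normalized cpm in the tumors and 631 to 1246 in the glands. Of 10 endothelial markers, 9 were lower (95.3 to 177 against 408 to 783), and of 6 pericyte and smooth muscle markers 2 were lower (76.5 to 258 against 181 to 648). All 10 adipocyte markers were lower in the fit without the filter (42.3 to 441 against 3714 to 11237). The 5 milk protein genes were lower as well (1128 to 44065 against 109695 to 165127). Of 7 lymphocyte markers, 6 were lower without the filter. Their sum was 83.3 in tumor 1 and 8.71 to 16.5 in the other tumors, beside 412, 21.3 and 324 in glands 1 to 3, so that gland 2 lay below tumor 1.

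Among epithelial markers, 3 of 12 were higher and none lower, with sums of 2521 to 3717 in the tumors and 1675 to 3556 in the glands. All 7 squamous markers tested were higher (437 to 2878 against 16.7 to 41.3), with Krt1, Krt6a, Ivl, Sprr1b and Dsg1a at or under 3 reads in every gland. Such genes pass the filter only through the tumors, so that the count among those tested was in part fixed by the filter. Without the filter, all 8 listed were higher. Basal epithelial markers were split, with 4 higher and 3 lower of 7, and their sums overlapped (944 to 4329 against 660.1 to 1892). Of 6 macrophage markers tested, 1 was higher, and the sum of the 7 listed was higher in every tumor than in every gland (278 to 556 against 252 to 269). Of the bone markers, 1 of 2 tested was higher (sums of 25.2 to 89.1 against 10.6 to 23.2), and the Schwann cell list had 1 higher and 1 lower of 3.

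Scaling the libraries to a cell type moved the counts but turned no called collagen. With libraries scaled to the epithelial markers, all genes tested had a median of -0.63 in log2. In this setting, 8 collagens were higher and 12 lower, beside 4.93% and 24.0% of all genes tested. Col16a1 (0.94) and Col8a1 (1.11, adjusted p = 0.104, limma) were then no longer called, and Col5a1 (-1.57) and Col9a1 (-1.41) were called lower. With libraries scaled to the fibroblast markers, the median of all genes was 1.08, and 15 collagens were higher and 5 lower, beside 41.0% and 1.38% of all genes. Since a scaling moves all genes alike, these counts are read against those shares. Relative to fibroblast markers, Col4a1, Col4a2, Col5a2, Col6a2 and Col6a3 were no longer called, with log2 fold changes of -1.20, -1.03, -0.81, -0.82 and -0.61. Col1a1, Col1a2, Col3a1, Col5a3 and Col15a1 remained lower, and Col9a2, Col11a2, Col14a1, Col18a1 and Col20a1 were called higher, at 1.499 to 2.10.

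Genes that act on collagens were counted in 6 lists, to be read against the shares of all genes given above: 10.2% higher and 6.99% lower as tested, 10.5% and 10.1% without the filter, and 41.0% and 1.38% with the fibroblast scaling. Without gland 1, 2 or 3, the shares of all genes were 8.28%, 9.16% and 12.8% higher and 5.59%, 6.55% and 9.50% lower. Of the 17 enzymes and chaperones tested that hydroxylate, glycosylate or fold the chains, none was called in either direction by limma, although without gland 3 there were 2 lower. Some passed the FDR in limma but not the 2-fold limit. P4ha1 was higher (log2 fold change 0.91, adjusted p = 0.00637). Lower were P4hb (-0.71, adjusted p = 0.00560), Serpinh1 (-0.66, adjusted p = 0.0409) and Mia3 (-0.65, adjusted p = 0.0408). With the epithelial scaling 8 were lower, where 24.0% of all genes were, and with the fibroblast scaling 6 were higher. Without the filter, 1 of 19 was lower. Of 8 genes for procollagen processing and cross-linking, 2 were higher, the lysyl oxidase relative Loxl4 (log2 fold change 2.44 ± 0.46) and the procollagen C-proteinase Bmp1 (1.07 ± 0.18). The lysyl oxidases Lox (-1.88 ± 0.42) and Loxl1 (-1.91 ± 0.46), which cross-link fibers, were lower. With the fibroblast scaling, 3 of this list were higher and none lower. Without the filter, 2 of 12 were higher and 3 lower, and without gland 3, 1 of 8 was higher and 3 lower.

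Among 16 proteins that bind fibrils, 5 were lower and 1 higher (2 and 3 with the fibroblast scaling), and 3 were lower when any 1 gland was left out. Without gland 2, 2 were higher. Dcn, Lum and Dpt of this list are also fibroblast markers, so that the counts with the fibroblast scaling are not independent of it. Without the filter, 7 of 18 were lower, among them Fmod (-3.45) and Ogn (-2.58), small proteoglycans of the matrix. The proteoglycan lumican, Lum, had 0.472, 20.1 and 30.9 normalized cpm as the lowest, median and highest tumor and 92.6, 133 and 242 in the glands (log2 fold change -3.29 ± 0.73, adjusted p = 0.00368, limma). Elastin, Eln, was lower too (-2.64 ± 0.59), and the proteoglycan versican, Vcan, was higher (2.21 ± 0.40). Of 9 collagen receptors, 2 were higher and 2 lower (5 and none with the fibroblast scaling, 3 and 2 without gland 2 or gland 3). Itga11, the integrin subunit for fibrillar collagen on fibroblasts, was at 10.01 to 58.5 in the tumors and 2.83, 0.878 and 0.975 in the glands (log2 fold change 3.07 ± 0.40, adjusted p = 4.74e-05, limma). Mrc2, an uptake receptor for collagen, was also higher (1.39 ± 0.29), whereas the fibrillar collagen receptor Ddr2 (-2.005 ± 0.46) and Itga1 (-1.42 ± 0.26), the integrin subunit known for type IV binding, were lower.

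Of 14 basement membrane partners of type IV collagen, 8 were lower and 1 higher, and with the fibroblast scaling 2 were lower and 5 higher. Without gland 1 or gland 2, 5 were lower, and without gland 2, 2 were higher. Without the filter, 10 of 16 were lower and 2 higher, with the largest fall in the laminin chain Lama2 (-3.79 ± 0.36, adjusted p = 2.20e-06, limma). Nid1, which links the laminin and type IV networks, had 14.7, 23.9 and 50.4 normalized cpm as the lowest, median and highest tumor and 171, 207 and 133 in the glands (log2 fold change -2.65 ± 0.31, adjusted p = 1.98e-05, limma). The laminin chain Lama1 was lower (-2.48 ± 0.54), and Lama3, the laminin chain of hemidesmosomes, was the member that was higher (1.66 ± 0.31). Among the 10 hemidesmosome partners of Col17a1, 4 were higher and 1 lower (6 and none with the fibroblast scaling). Without gland 1 there were 2 higher, without gland 3 there were 3, and the count of lower ones ranged from 0 to 2. The basal keratins Krt5 (2.82 ± 0.47) and Krt14 (1.73 ± 0.46) rose most, and the integrin subunit Itga6 was lower (-1.15 ± 0.33), while its partner Itgb4 was higher (1.48 ± 0.48, adjusted p = 0.0317, limma).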

How the data were processed

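Total RNA from flash-frozen tissue was sequenced in 13 libraries. Per the study's methods, paired-end reads were mapped to mm10 with Rsubread, counted per gene with featureCounts and normalized with edgeR. The values deposited by the authors are a signal, namely the read count of a gene over the effective size of its library, and all were whole multiples of the value of 1 read (tolerance 0.01 reads), so that read counts were recovered from them. The labels name 2 sequencing sites without assigning libraries, so that no batch could be tested.

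A gene entered the test when it exceeded 5 normalized cpm in at least 7 of the 13 libraries, and the 3418 genes that did not were dropped. The other 11795 were tested with limma (3.58.1, R 4.3.3) with a variance trend on log2(normalized cpm + 1) and Benjamini-Hochberg adjustment. Fold changes on this scale understate changes of low genes. The test was tried on simulated data. Tumors were taken as separate samples, although some shared a mouse, and p-values measure the spread between these libraries. No pair of libraries appeared to be the same library. Alternatives were other pseudocounts and filters, edgeR (4.0.16) and DESeq2 (1.42.0) on recovered reads, other scalings, tumors averaged or correlated by mouse, leaving out libraries, a replicate block and, chosen after seeing the data, a GC-content correction and a block for the chain ratios.

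Members and gene lists were chosen with earlier results of these data known. The lowest, median and highest tumor and each gland were given, in each structural group, for the member with the highest mean level and those with the largest rise and fall past the threshold, and for both chains of each ratio. In each partner list, the 2 largest rises and falls among genes past the filter were named. Fmod, Ogn and Lama2, which the filter left out, were added after their values were seen. Col4a5, Itgb4, P4ha1, P4hb, Serpinh1, Mia3 and the members called only under some settings were described in addition after their values were seen. Exon lengths, over all annotated exons of a gene joined, and coding sequences came from GENCODE vM21, so that levels per kb depend on the annotation. Positions came from RefSeq on GRCm38.p6, matched by Entrez ID for 15106 genes. Col4a3, Col4a4, Col6a6, Col19a1, Col22a1, Col24a1 and Col28a1 were not analysed here.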

Additional observations from a re-analysis of the deposited data

Results flagged for a closer look

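In 3 cases, a value stood far from the other tumors by Dixon's test for an outlying value, which was applied to the 10 tumors for the 37 collagens and the 6 chain ratios and which chance flags in about 1 of 20 groups. Col6a4, a type VI chain with few reads, was at 3.64 normalized cpm in tumor 9, with 0.939 as the next highest, and tumor 9 is the library with the largest share of Rn45s. Col8a2 was at 29.8 normalized cpm in tumor 4, with 17.8 as the next highest. The log2 ratio of Col1a1 to Col1a2 was -2.13 in tumor 10, with -0.87 as the next lowest. The causes were not tested.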

How the results depend on the processing

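The counts of 10 higher and 10 lower collagens were 10 and 10 with edgeR, with DESeq2, with both smaller pseudocounts and with the correlation of tumors of a mouse (0.0477) in the fit, 11 and 12 without a filter, 11 and 11 with the milder filter, 11 and 10 with the GC-content correction and 10 and 8 with tumors of a mouse averaged. Leaving out 1 library gave 8 to 10 higher and 8 to 11 lower. The fibroblast scaling left 5 lower. Among all genes, limma called 1204 higher and 825 lower, against 1122 and 952 with edgeR, 1227 and 940 with DESeq2, 581 and 2836 with the epithelial scaling, 4832 and 163 with the fibroblast scaling, and 362 and 182 with the replicate block.

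The labels give tumors and glands the same replicate numbers, but the numbers 1 to 3 name different mice, and the deviations of same-numbered libraries correlated at -0.579, 0.0447 and -0.664, so that they do not pair the samples. With the replicate block, 4 collagens were higher and 4 lower. For the chain ratios, the block gave a difference over numbers 1 to 3 without a test of -0.72 for Col1a1:Col1a2, 0.90 for Col5a1:Col5a2, -0.12 for Col4a1:Col4a2, 2.19 for Col6a1:Col6a2, 1.60 for Col6a1:Col6a3 and -0.29 for Col3a1:Col1a1.

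Leaving out 1 library moved the log2 difference of the ratios over -1.09 to -0.76 for Col1a1:Col1a2, 0.54 to 1.19 for Col5a1:Col5a2, -0.27 to 0.043 for Col4a1:Col4a2, 1.92 to 2.15 for Col6a1:Col6a2, 1.34 to 2.10 for Col6a1:Col6a3 and -0.71 to 0.53 for Col3a1:Col1a1. Without gland 3, Col4a1:Col4a2 (0.043) and Col3a1:Col1a1 (0.53) changed sign. The type VI ratios then had adjusted exact permutation p = 0.0909 for Col6a1:Col6a2, the smallest that a pair alone can reach, and 0.136 for Col6a1:Col6a3, which is above it. Without tumor 10, Col1a1:Col1a2 passed (-0.76, exact permutation, adjusted p = 0.0455).

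No called collagen changed sign under an alternative. Members that were not called did: Col11a1 with edgeR (0.044), DESeq2 (0.085), the fibroblast scaling (0.83), tumors of a mouse averaged (0.011), and without tumor 6 (0.0025) or gland 2 (0.074); Col11a2 (-0.17), Col14a1 (-0.17), Col20a1 (-0.20) and Col6a1 (-0.53) with the epithelial scaling; Col5a1 (0.13) and Col9a1 (0.29) with the fibroblast scaling; Col20a1 (-0.023) and Col6a1 (-0.28) with the replicate block; and Col6a1 without tumor 4 (-0.04) or gland 3 (-0.36). Leaving out 1 library moved Col11a1 over -0.63 to 0.074 and Col6a1 over -0.36 to 0.39. The causes were not tested. Depth limits Col2a1, Col6a4, Col6a5, Col10a1 and the low transmembrane members, some of whose libraries hold few reads.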

Other observations

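Beside the head-to-head type IV pairs, 3 other pairs of listed collagens are near neighbours in the annotation of GRCm38.p6. Col3a1 and Col5a2 lie tail to tail on chromosome 1 with 24624 bases between them, and both were lower in the tumors (log2 fold changes of -3.65 and -1.87). Col6a1 and Col6a2 lie on the same strand of chromosome 10, 85161 bases apart, and had log2 fold changes of 0.12 and -1.88. Col6a4 and Col6a5 are separated by 27854 bases on chromosome 9, and neither passed the test.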
